A study of Homo sapiens with 12 samples.

Results

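The peaks described here lie over the antigen receptor loci of Jurkat, a human leukaemia line of T-cell origin, and come from ChIRP-seq, which sequences the chromatin pulled down with an RNA. A peak belonged to a locus when its summit lay inside the positions set for it on build hg19, whatever its height, so the choice used no measured value other than position. The 9 lists held 1357 such peaks out of 764268, with 307 in the T-cell receptor (TR) loci and 1050 in the immunoglobulin (IG) loci. TRA/TRD on chromosome 14 spans 0.93 Mb and held 129, with summits from 22102201 to 23006630. TRB on chromosome 7 spans 0.52 Mb and held 152 (141992037 to 142502798), and TRG on the same chromosome spans 0.13 Mb and held 26 (38282273 to 38403495). IGH on chromosome 14 spans 1.23 Mb and held 481 (106055826 to 107273821), IGK on chromosome 2 spans 1.13 Mb and held 233 (89154173 to 90278612), and IGL on chromosome 22 spans 0.89 Mb and held 336 (22384828 to 23259934). Stretches as long as the locus on each side served as flanks and held 2342 peaks. Above IGH the flank had to stop at the last peak of the chromosome, so that its flank is in effect the stretch below it.

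All libraries came from Jurkat cells that stably expressed the long non-coding RNA SLEAR, which the lacZ controls carried too, so no group lacked it. In this assay biotinylated oligonucleotides pair with an RNA and bring down the chromatin fixed to it. By the usual design of the assay, odd and even probes tile the target RNA in alternation, and lacZ probes are aimed at a bacterial RNA that human cells do not make. The labels give 3 libraries each of lacZ, odd and even, which were used here, and 3 input libraries that were not analysed here. They name a single cell line and do not say whether the libraries came from separate cultures, so the spread behind each p-value may be technical. Peak lists hold no RNA levels, so the labelled cell type could not be checked against marker genes.

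Antigen receptor genes are assembled from V, D, J and C gene segments. During T-cell development, V(D)J recombination joins segments of the TR loci and the DNA between the joined ends is cut out or inverted, while the same happens to the IG loci in B cells. TRA and TRB encode the chains of the alpha-beta receptor, TRD and TRG those of the gamma-delta receptor, IGH the antibody heavy chain, and IGK and IGL the light chains. In RefSeq (assembly GRCh38.p14, used only for names and order) the TRA locus holds 49 V, 3 D, 62 J and 2 C segments. Its V segments come first, then the TRD segments, which lie inside it, then the TRAJ segments, and last TRAC, the constant region, with DAD1 as the next gene above the locus. IGH holds 48 V, 27 D, 6 J and 9 C segments.

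The lists were of unequal length, from 26540 peaks in lacZ replicate 3 to 124668 in even replicate 3, and lacZ lists were the shorter ones on average. The total number of reads is unknown. Each locus was therefore set against its own flanks within each list, as the log2 ratio of peaks per Mb with 0.5 peaks added to each count.

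TRA/TRD held fewer peaks than its flanks with all 3 probe sets. It held 9, 10 and 4 peaks with lacZ probes, 11, 12 and 21 with odd probes, and 20, 18 and 24 with even probes. The density was 8.24 ± 3.46 peaks per Mb in lacZ lists against 16.7 ± 9.51 in the flanks (SD, n = 3). It was 15.8 ± 5.92 against 37.6 ± 10.3 in odd lists and 22.2 ± 3.29 against 41.04 ± 5.6 in even lists. The log2 ratio to the flanks was −0.99 ± 0.33 (SD over 9 lists), or 0.503 of the flank density, and it was below 0 in 9 of 9 lists (two-sided exact sign-flip permutation p = 0.0039; 9 lists allow none smaller). Adjusted by Benjamini-Hochberg over the 8 comparisons of 6 loci and 2 classes it was 0.0156. All lists are of 1 cell line, and a stretch empty in all 9 of them, given below, lowers every ratio by the same amount. The p-value is thus about lists that share this stretch and does not test the rest of the locus. The ratios ran from −1.27 to −0.58 in lacZ, −1.72 to −0.90 in odd and −0.89 to −0.84 in even lists, so that lacZ overlapped with both other sets, while odd and even did not overlap and differed by 0.37 (even minus odd, two-sided exact permutation p = 0.1, the smallest possible).

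The locus held a long stretch without peaks. From 22466720 to 22977804 on chromosome 14, 511.1 kb or 54.96% of the locus, not one of the 9 lists had a peak. It began 376.7 kb from the lower edge of the locus and ended 42.2 kb before the upper edge. At the density of their own flanks the lists would have held between 4.12 peaks (lacZ replicate 3) and 24.2 peaks (even replicate 3) there, 146 in all. The longest stretch free of peaks in the flanks was 33.3 kb below and 34.5 kb above the locus. Among the 357845 such stretches on chromosomes 1 to 22 and X it ranked 23 in length, 24 were of 500 kb or more, and on chromosome 14 it was the only stretch of that length. Which bases of hg19 are known and can be mapped uniquely was not used here, so their part in the stretch was not tested. Positions of gene segments on hg19 were not used here either, so the ends of the stretch are not assigned to segments.

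**Figure D1:**
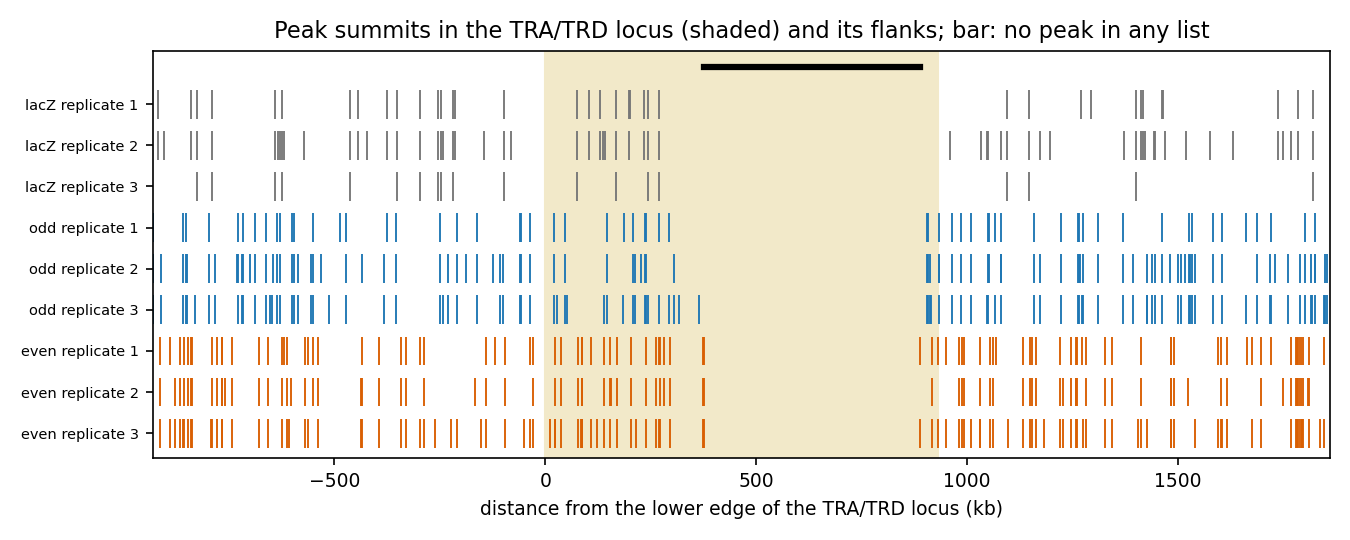
Position of each peak summit in the TRA/TRD locus (shaded) and in flanks of the same length, in kb from the lower edge of the locus, with 1 row for each of the 9 peak lists coloured by probe set. The black bar marks the 511.1 kb in which no list has a peak; on both sides of it peaks of the same set stand in line across replicates.

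The ends of the empty stretch differed between probe sets, and in part between lists of the same set. Even replicates 1 and 3 had the same gap of 511.1 kb within the width of a peak, ending at 22977804 and 22977862, and in even replicate 2 it ran to 23006344. In all 3 even lists it began between 22466660 and 22466720. The odd lists had gaps of 611.7, 598.4 and 540.5 kb that ended between 22994668 and 22994876. The lacZ lists had no peak from 22359729 to the end of the locus, and their gaps ran on into the flank to 23184278, 23048412 and 23184396.

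The peaks of the locus lay mostly below that stretch. Of its 129 peaks, 115 lay below the stretch and 14 above it, and of those above 9 were from odd, 5 from even and 0 from lacZ lists. Below the stretch the density was 50.4 ± 7.02 peaks per Mb in even, 31.0 ± 12.3 in odd and 20.4 ± 8.53 in lacZ lists (SD, n = 3). With all stretches of at least 50 kb free of peaks in all 9 lists taken off the locus and the flanks, the log2 ratio of TRA/TRD was 0.16 ± 0.33 (SD over 9 lists). Such stretches are picked for holding no peaks, and here all of them lay in the locus, so the ratio of every list rises by the same amount and no test is given.

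The strongest TRA/TRD peaks lay below the stretch and differed between sets. The fold enrichment is the authors' value for a peak within its own list, and folds of different lists are not compared. The highest with even probes, from 22293843 to 22294709, had folds of 83.5, 105 and 93.2 in even replicates 1 to 3 and no peak in any odd or lacZ list. The highest with odd probes, from 22298113 to 22298981, had 50.8, 146 and 96.3 and no even or lacZ peak. These regions lie close together, and neither set had a peak in the other's. That is common in the whole series, with overlapping peaks of all lists merged into regions. Of 58510 regions in all 3 odd lists, 54075 had no even peak, and of 69242 in all 3 even lists, 64273 had no odd peak. The highest with lacZ probes, from 22358756 to 22360019, had folds of 111, 267 and 63.6, at a mean percentile of 99.3 within the lacZ lists. Even replicates 1 and 3 also had a weak peak there, at 7.74 and 6.88, with a summit 468 bases away. It is also where the lacZ lists cease to have peaks in the locus.

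TRB, the beta chain locus, showed no difference from its flanks that passed the test over all lists as deposited, and the sets went in opposite directions. There were 10, 14 and 6 peaks with lacZ probes, 17, 26 and 27 with odd probes, and 17, 14 and 21 with even probes. The log2 ratio to the flanks was 0.54 ± 0.25 in lacZ and 0.38 ± 0.08 in odd lists, and −0.53 ± 0.07 with even probes (SD, n = 3). All 6 lacZ and odd lists were above 0 and all 3 even lists below it. Over 9 lists it was 0.13 ± 0.52 (exact sign-flip permutation p = 0.445, adjusted p = 0.509), and with all lists cut to equal length it was 0.59 (exact sign-flip permutation, adjusted p = 0.0375). Even and odd lists did not overlap and differed by −0.91 (two-sided exact permutation p = 0.1; 3 lists against 3 allow none smaller). Even lists had more peaks in the flanks, at 49.4 ± 11.9 per Mb against 34.6 ± 6.93 in odd lists.

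Peaks of the sets sat in different parts of TRB. Between 100 and 200 kb from the lower edge the odd lists had 9, 11 and 14 peaks, against 1, 2 and 0 in lacZ lists and 5, 4 and 6 in even lists. In the next 100 kb there were 5, 7 and 4 with lacZ, 0, 2 and 2 with odd and 3, 2 and 3 with even probes. RefSeq lists the V segments first in this locus, then PRSS1 and PRSS2, which encode trypsinogens, then D, J and C segments, and TRBV30 last. There were 2 stretches of at least 50 kb with no peak in any list, from 142041168 to 142098557 (57.4 kb) and from 142264746 to 142326865 (62.1 kb). Together they made up 22.98% of the locus, and the longest in its flanks was 28.9 kb. Without these stretches TRB stood at 0.51 ± 0.52 against its flanks, which had none to take off.

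The strongest lacZ region of TRB ran from 142248837 to 142249687, with folds of 67.3, 191 and 52.3 in lacZ replicates 1 to 3 and no probe peak. With odd probes it was 142183598 to 142184354, with 37.7, 82.3 and 61.8, where even replicate 3 alone of the other lists had a peak at 8.99. With even probes it was 142032826 to 142033675, with 60.8, 48.7 and 37.5 and no other peak. Odd and lacZ lists shared the region from 142468521 to 142469698, with folds of 27.2, 52.7 and 17.5 in lacZ and 10.2, 25.6 and 15.2 in odd lists, and summits 485 bases apart.

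TRG, the gamma chain locus and the shortest of the 6, held few peaks except with even probes. Even probes gave 6, 6 and 7 peaks, odd probes 1, 1 and 3, and lacZ probes 0, 2 and 0. The even lists lay above all others in number and in density, at 48.7 ± 4.44 peaks per Mb against 12.8 ± 8.88 in odd lists. The log2 ratio to flanks was 0.47 ± 0.32 in even, −1.23 ± 0.48 in odd and −1.78 ± 0.70 in lacZ lists (SD, n = 3), a value that depends on the 0.5 peaks added where a list has 0. Even and odd lists differed by 1.70 (exact permutation p = 0.1, the smallest possible). Over 9 lists the ratio was −0.85 ± 1.11 (exact sign-flip permutation p = 0.0586, adjusted p = 0.0781). The highest even region, from 38290633 to 38291391, had folds of 27.1, 53.0 and 38.4, and the only region in all 3 odd lists, from 38362691 to 38363513, had 15.04, 33.2 and 24.03. No region was found by all 3 lacZ lists. The longest stretch free of peaks in all lists was 29.1 kb.

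**Figure D2:**
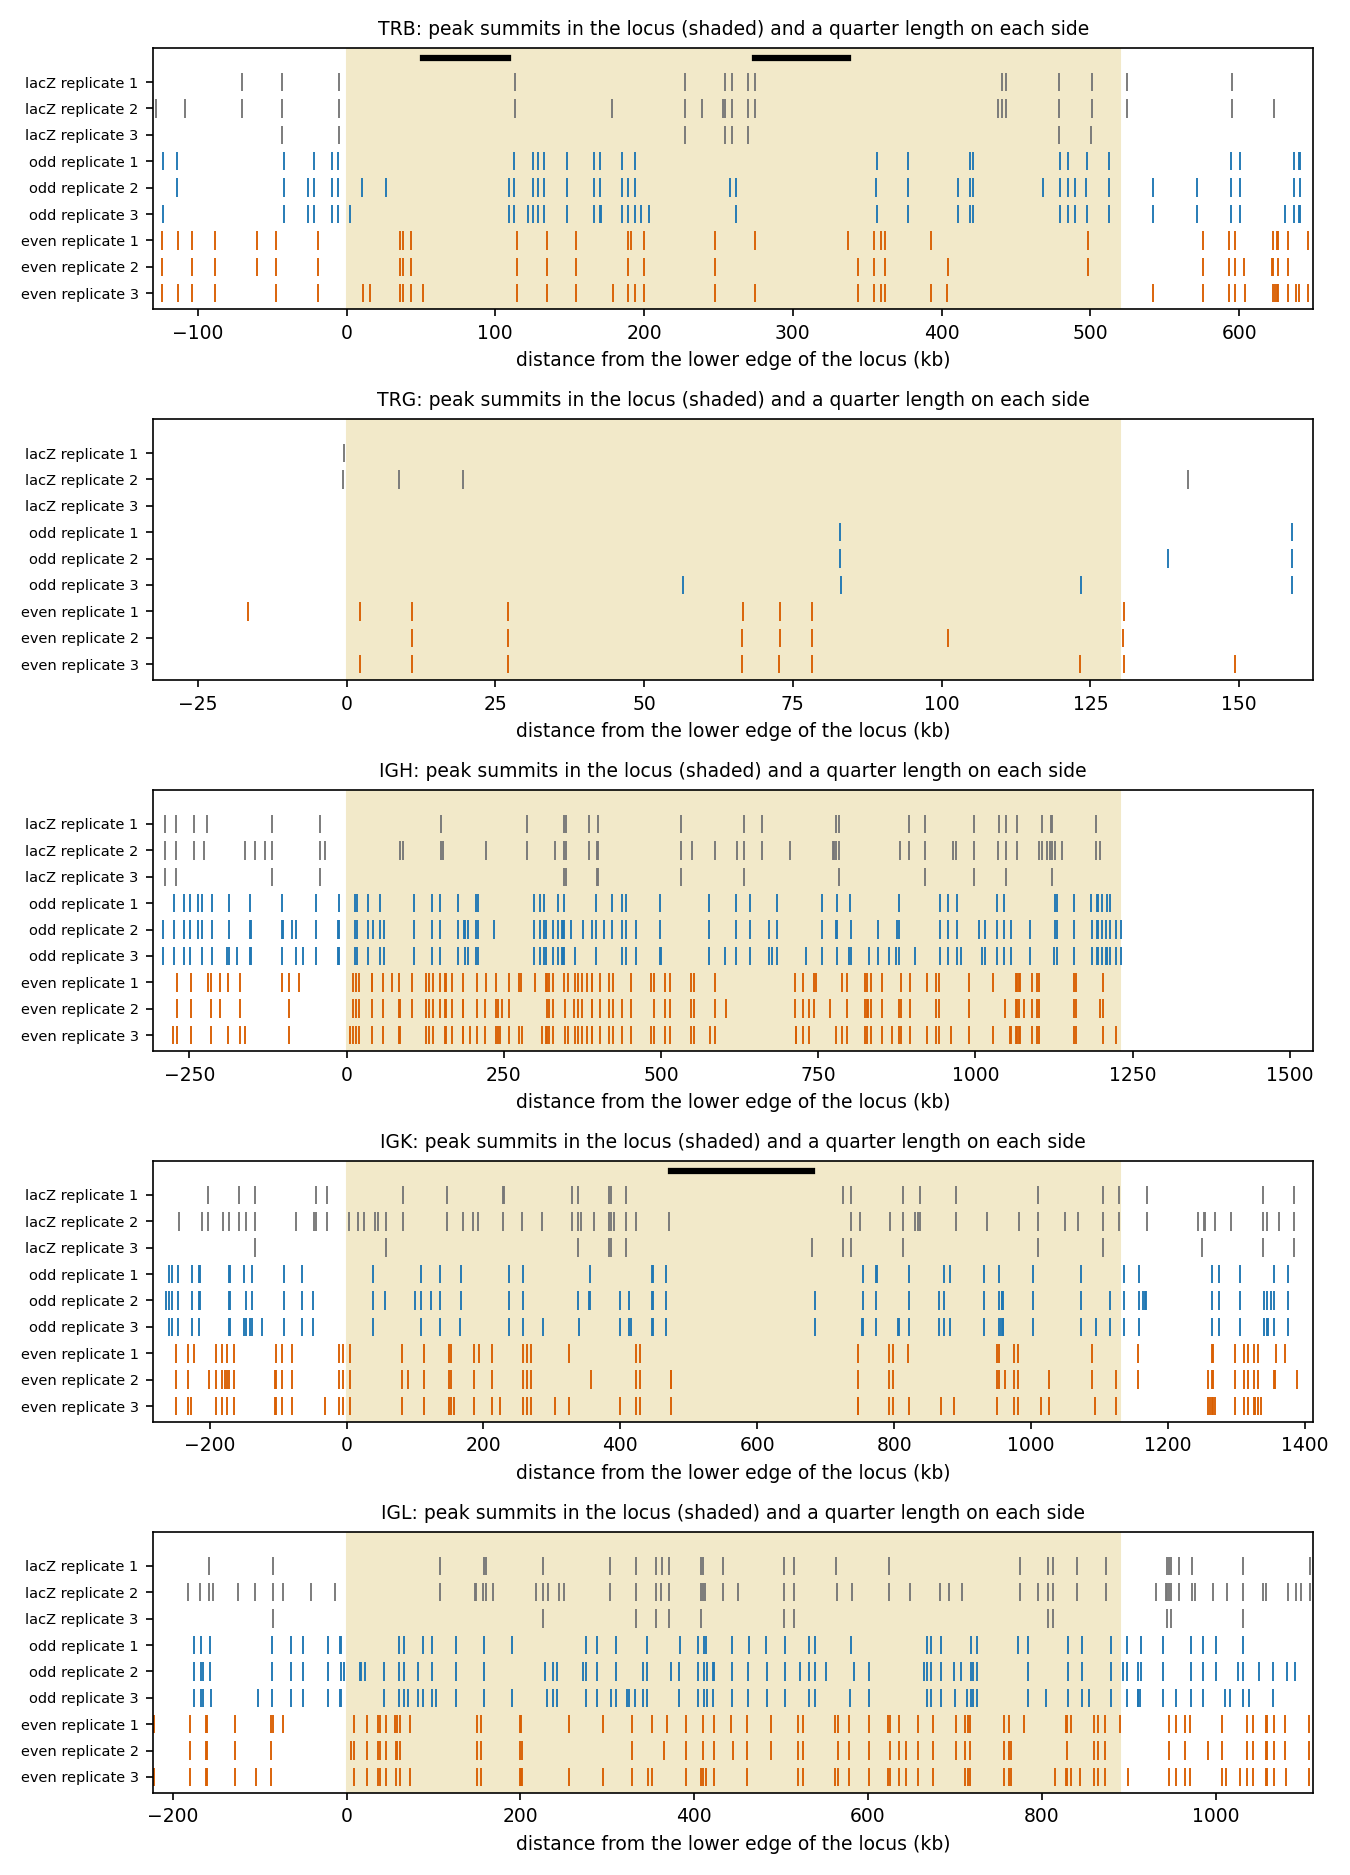
Position of each peak summit in TRB, TRG, IGH, IGK and IGL (shaded) and in part of the flanks on each side, in kb from the lower edge of each locus, with 1 row per peak list coloured by probe set. Black bars mark stretches of at least 50 kb with no peak in any list, 2 in TRB and 1 of 205.7 kb in IGK; TRG, IGH and IGL have none.

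IGH, the heavy chain locus, was dense in peaks, above all with even probes. Even probes gave 74, 73 and 85 peaks in it, odd probes 42, 66 and 68, and lacZ probes 21, 41 and 11. Per 10000 peaks of the list on chromosomes 1 to 22 and X these were 7.60 ± 0.67 in even, 6.12 ± 0.28 in odd and 4.39 ± 0.21 in lacZ lists (SD, n = 3), with no overlap between the sets. Against the flanks the even lists stood at 0.66 ± 0.11 on the log2 scale, 1.58 times the flank density, and the odd and lacZ lists below it at −0.24 ± 0.05 and −0.32 ± 0.19. All 3 even lists were above 0 and all 6 others below. Even exceeded odd lists by 0.90 and lacZ lists by 0.99 (exact permutation p = 0.1 each). The flank of IGH was itself rich in odd peaks, with 56.0 ± 12.7 per Mb against 39.8 ± 6.44 in even lists. Over 9 lists the ratio was 0.04 ± 0.49 (exact sign-flip permutation p = 0.824, adjusted p = 0.824), and set against the peaks per Mb of chromosomes 1 to 22 and X in place of the flanks it was 0.52 (exact sign-flip permutation, adjusted p = 0.00625).

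Even probes did not have more peaks in every part of IGH. In the first 300 kb, the end where RefSeq places the constant regions, the even lists had 6 to 10 peaks in each 100 kb, the odd lists 3 to 7 and the lacZ lists 0 to 2. From 600 to 700 kb the order was the other way, with 0, 1 and 0 even peaks against 3, 4 and 6 in odd and 2, 3 and 1 in lacZ lists. There the even lists had their longest stretch without a peak, from 106653248 to 106763632 (110.4 kb), which held 19 peaks of the odd and lacZ lists. No stretch of 50 kb was free of peaks in all 9 lists, and the longest was 23.9 kb, from 107210469 to 107234319.

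The strongest IGH regions again belonged to a single set, or nearly so, as is common in the whole series. With even probes the region from 106635825 to 106636357 had folds of 66.7, 121 and 92.8, and the only other peak in it was 1 of 3.34 in lacZ replicate 2. With odd probes the region from 107251489 to 107252282 had 57.7, 119 and 68.0, and with lacZ probes that from 107170591 to 107171425 had 30.2, 99.7 and 40.0, neither with a peak of another set. Odd and lacZ lists shared 106394934 to 106395880, with folds of 19.8, 104 and 38.3 in odd and 9.68, 44.1 and 7.82 in lacZ lists and summits 296 bases apart.

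IGK, the kappa light chain locus, had its peaks on either side of an empty stretch of 205.7 kb, from 89624709 to 89830447 on chromosome 2, or 18.2% of the locus. At flank density the lists would have held 36.5 peaks in it in all. It ranked 27 in length on chromosomes 1 to 22 and X. The upper flank held a longer one, from 90538768 to the end of the flank (871.2 kb), and another of 74.5 kb, from 90319112 to 90393629. These made up 41.8% of the flanks whose density gave the 36.5 peaks. Which bases of hg19 are known and can be mapped uniquely was not used for these stretches or for those of TRB. Their part was therefore not tested. IGK held 17, 39 and 11 peaks with lacZ probes, 20, 31 and 33 with odd probes, and 23, 27 and 32 with even probes. The lacZ lists had 4.03 ± 0.34 per 10000 of their peaks there, more than the 2.92 ± 0.10 of odd and the 2.67 ± 0.29 of even lists (SD, n = 3), and the lacZ values did not overlap with the others.

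The ratio of IGK to its flanks turned with the empty stretches. With them it was 0.28 ± 0.30 over 9 lists (exact sign-flip permutation p = 0.0273, adjusted p = 0.0438, higher in 8 of 9), and without them −0.21 ± 0.30, with 205.7 kb taken off the locus and 945.8 kb off the flanks. With a list or a replicate number left out the adjusted p of the first value ran from 0.0208, without odd replicate 1, to 0.208, without replicate 3 of each set. Leaving out a replicate number keeps 6 lists, where the exact sign-flip permutation p cannot fall below 0.03125 before adjustment. The strongest even regions lay on opposite sides of the empty stretch. The region from 90124711 to 90125622 had folds of 196, 258 and 171, and that from 89413350 to 89414270 had 150, 223 and 162, at mean percentiles of 99.9 and 99.8 within the even lists and with no odd or lacZ peak. The V segments of IGK are known to occur as a proximal and a distal copy in opposite orientation; whether these regions are copies of each other was not tested. The highest odd region, from 89258776 to 89259614, had 50.3, 117 and 73.8, and the highest lacZ region, from 89487476 to 89488342, had 48.4, 117 and 26.9.

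IGL, the lambda light chain locus, was slightly denser than its flanks. Peaks numbered 21, 36 and 9 with lacZ probes, 32, 49 and 50 with odd probes, and 48, 41 and 50 with even probes. The log2 ratio to the flanks was 0.22 ± 0.20 over 9 lists, above 0 in 8 of 9 (exact sign-flip permutation p = 0.0234, adjusted p = 0.0438), with 0.10 ± 0.33 for lacZ, 0.25 ± 0.12 for odd and 0.32 ± 0.07 for even probes (SD, n = 3). The exception was lacZ replicate 2 at −0.28. With a list or a replicate number left out the adjusted p ran from 0.0156, without lacZ replicate 2, to 0.25, without replicate 1 of each set. In the latter 6 lists remain, and the exact sign-flip permutation p is at least 0.03125 before adjustment. RefSeq places other genes among these V segments, such as VPREB1, which encodes part of the surrogate light chain, and PRAME, a tumour antigen. The longest empty stretch was 31.0 kb, below the 38.7 kb in its flanks.

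The strongest IGL regions, by percentile of fold within their own lists, came from lacZ probes. The region from 22735996 to 22736889 had folds of 83.9, 268 and 57.9, and that from 22787093 to 22787986 had 90.4, 281 and 41.5, at mean percentiles of 98.8 and 97.7 and with no peak in any odd or even list. With even probes the region from 22403681 to 22404515 had 52.9, 80.0 and 106, and with odd probes that from 23225848 to 23226615 had 54.8, 110 and 79.6.

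**Figure D3:**
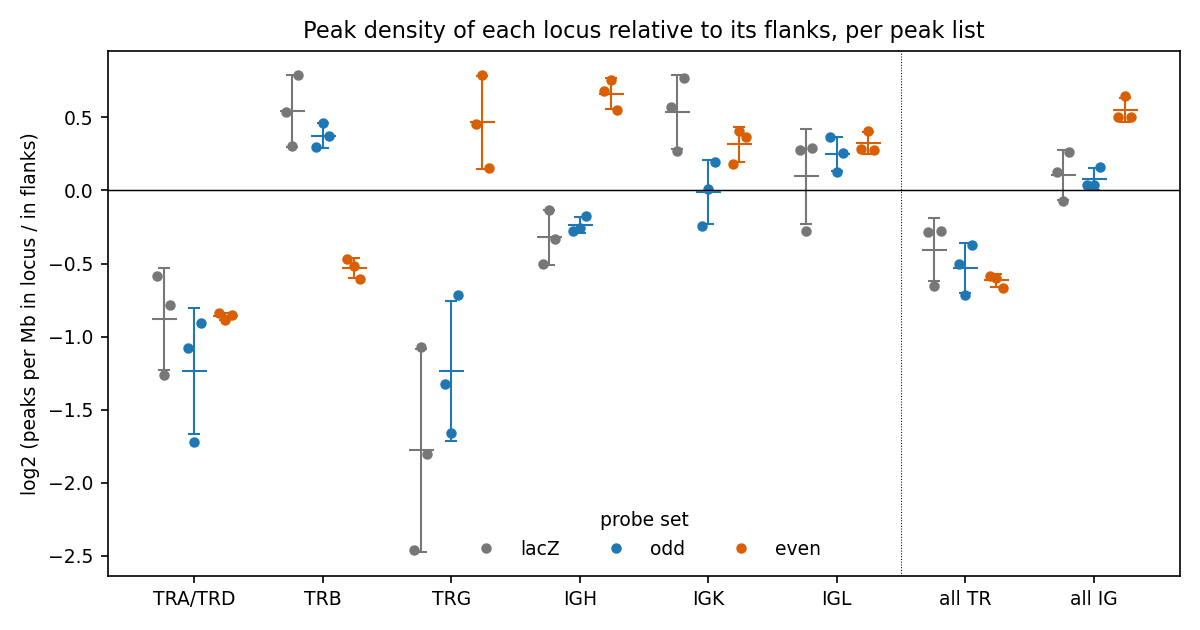
Log2 ratio of peaks per Mb in each locus to peaks per Mb in its flanks, with 1 point per peak list and the mean with SD of each probe set (n = 3); the right part pools the 3 TR and the 3 IG loci. TRA/TRD lies below 0 in all 9 lists, whereas in TRB, TRG and IGH the even lists lie on the other side of 0 from the odd and lacZ lists.

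Pooled, the TR loci lay below their flanks and the IG loci above theirs. The TR loci held 19, 26 and 10 peaks in lacZ, 29, 39 and 51 in odd and 43, 38 and 52 in even lists, and the IG loci 59, 116 and 31, 94, 146 and 151, and 145, 141 and 167. The log2 ratio to the flanks was −0.52 ± 0.17 for TR, below 0 in 9 of 9 lists (exact sign-flip permutation p = 0.0039, adjusted p = 0.0156), and 0.25 ± 0.25 for IG, above 0 in 8 of 9 (p = 0.0156 in the same exact test, adjusted p = 0.0417). The call for IG was lost, at adjusted p-values of 0.0625 to 0.208, in every repeat with a list or a replicate number left out except those without lacZ replicate 2 (0.0156) or odd replicate 1 (0.0469). Where a replicate number was left out, the exact sign-flip permutation p of the 6 remaining lists could not fall below 0.03125, so an adjusted call was hardly possible. TR stood 0.76 ± 0.32 lower than IG on the log2 scale (exact sign-flip permutation p = 0.0039), at −0.51 ± 0.09 in lacZ, −0.61 ± 0.12 in odd and −1.17 ± 0.08 with even probes (SD, n = 3). These tests are over lists of the same genome and do not treat the 3 loci of each class as replicates. Stretches empty in all lists shift every ratio of a class by the same amount, so the tests do not separate them from the rest of the loci.

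The mean difference between TR and IG turned without the empty stretches. Without TRA/TRD it kept its direction but no longer passed the test. With stretches of at least 50 kb free of peaks in all lists taken off, the TR loci stood at 0.22 ± 0.17 against their flanks, the IG loci at 0.05 ± 0.25 and TR minus IG at 0.16 ± 0.32. TR minus IG was then 0.41 ± 0.09 in lacZ and 0.32 ± 0.12 in odd lists and −0.24 ± 0.08 in even lists. These values are descriptions with no test, because the stretches were picked for holding no peaks and shift all lists by the same amount. Without TRA/TRD, TR minus IG was −0.26 (exact sign-flip permutation p = 0.246). Without IGK, whose upper flank held the stretch of 871.2 kb, the IG loci stood at 0.13 (exact sign-flip permutation, adjusted p = 0.295).

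**Figure D4:**
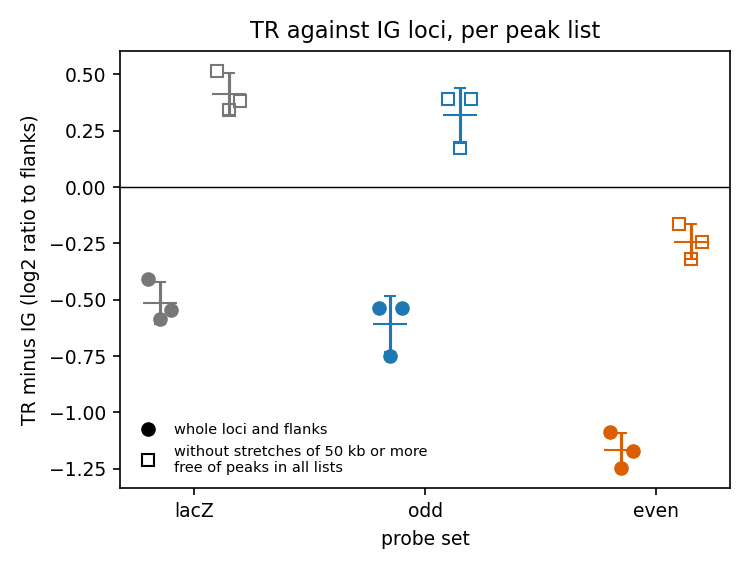
Log2 ratio to flanks of the TR loci minus that of the IG loci, with 1 point per peak list and mean with SD for each probe set (n = 3). Filled circles use whole loci and flanks and lie below 0 in all 9 lists; open squares leave out stretches of at least 50 kb free of peaks in all lists and lie above 0 in the 6 lacZ and odd lists and below 0 in the 3 even lists.

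No difference between the 6 probe lists and the 3 lacZ lists passed the adjusted test against flanks. As a share of all peaks of a list, in place of flanks, probe exceeded lacZ lists by 0.61 in IGH and the difference was −0.54 in IGK (exact permutation, adjusted p = 0.0476 each). In the TR loci the log2 ratio to flanks for probes minus that for lacZ was −0.17 (exact permutation over 84 choices, two-sided, p = 0.179, adjusted p = 0.286), and in the IG loci 0.21 (exact permutation p = 0.286, adjusted p = 0.327). The difference between TR and IG differed between probe and lacZ lists by −0.37 (exact permutation p = 0.107). For single loci the lowest raw p was that of TRB, −0.62 (exact permutation p = 0.0476, adjusted p = 0.190), with TRG at 1.40 and IGK at −0.39 (exact permutation p = 0.0714 each, adjusted p = 0.190). Against the flanks, odd and even lists lay on opposite sides of 0 in TRB, TRG and IGH, so a mean over both describes neither set there.

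The longest stretch without a peak was measured in each list as well. In TRA/TRD it was longer than the longest in the flanks in 9 of 9 lists, from 511.1 to 660.3 kb against 102.2 to 419.5 kb. In IGH it was longest in lacZ replicate 3, the shortest list, at 345.4 kb, against 76.8 kb in odd replicate 2. In TRG lacZ replicates 1 and 3 had no peak in the whole locus. In IGL the lists ranged from 65.5 kb in odd replicate 3 to 290.8 kb in lacZ replicate 3.

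**Figure D5:**
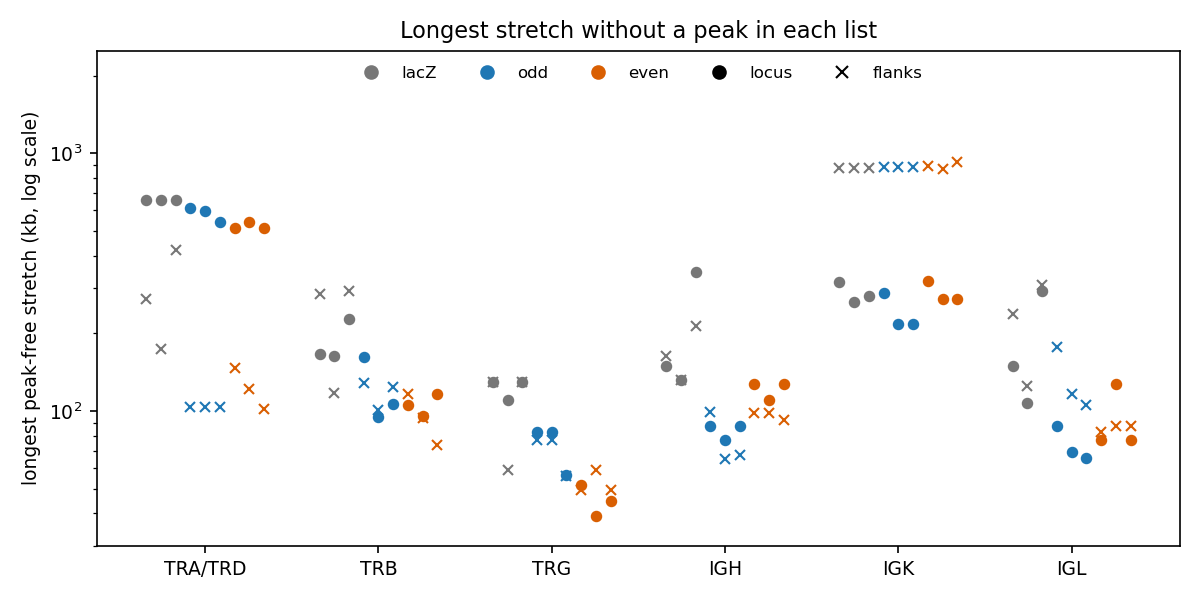
Longest stretch without a peak in each list (log scale, kb), inside each locus (circles) and inside its flanks (crosses), coloured by probe set. TRA/TRD is the only locus where all 9 circles lie above their crosses, and in IGK all crosses lie above the circles and stand for the empty stretch in its upper flank.

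Peaks that overlapped between lists were merged into regions, and the loci held 620 of 357901. A peak in all 3 lists of a set was found in 65 of 137 regions of the TR loci (47.4%) and in 213 of 483 of the IG loci (44.1%), against a background of 41.3% over all regions and 42.5% of the 1094 in the flanks. All 3 even lists had 136 of the 620 (21.9%, background 19.3%), all 3 odd lists 109 (17.6%, background 16.3%) and all 3 lacZ lists 37 (5.97%, background 6.71%). Shares in all 3 even lists were above that background in TRG (5 of 13), TRA/TRD (15 of 57, 26.3%, with 23.8% in its flanks), IGH (54 of 208, 26.0%) and IGL (33 of 158, 20.9%), and below it in TRB (11 of 67, 16.4%) and IGK (18 of 117, 15.4%). Shares in all 3 odd lists were above the background in TRB (17 of 67, 25.4%), IGH (38 of 208, 18.3%) and IGL (28 of 158, 17.7%), and below it in IGK (17 of 117, 14.5%), TRA/TRD (8 of 57, 14.04%) and TRG (1 of 13). In the flank of IGH the order was reversed, with 30 of 205 regions in all 3 even and 43 in all 3 odd lists.

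Regions that odd and even probes shared and lacZ probes missed were at the share of the whole series and above that of the flanks, with no test. Of the 620 regions, 7 had peaks of 5 or 6 probe lists and none of lacZ (1.13%, background 1.13%), against 6 of 1094 in the flanks (0.548%). By locus these were 1 in TRA/TRD, 1 in TRB, 4 in IGH and 1 in IGK, with 0 of 13 regions in TRG and 0 of 158 in IGL. In TRA/TRD the region ran from 22328138 to 22328917, with folds of 7.99, 13.7 and 8.6 for odd and 34.9, 62.0 and 48.0 for even probes, and the summits of the sets lay within 15 bases. In TRB it ran from 142178719 to 142179352, with no peak in odd replicate 1, folds of 12.4 and 21.5 in odd replicates 2 and 3, and 4.28, 12.9 and 16.9 for even probes, and the summits of the sets lay within 92 bases.

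The IGH and IGK regions of this kind differed in how strong they were within the lists of each set. From 107206400 to 107207465 all 6 probe lists had a peak, with folds of 12.7, 18.0 and 23.1 in odd and 5.41, 13.3 and 28.9 in even lists, but the summits lay 507 bases apart. From 106927628 to 106928777 the odd folds were 30.6, 80.1 and 49.1, and even replicates 2 and 3 had 3.82 and 6.85. From 106488162 to 106488784 the odd folds were 7.70, 16.1 and 16.3 and those of even replicates 2 and 3 were 7.44 and 12.3, and from 106378436 to 106379168 all folds were at most 10.9. In IGK the region from 90103152 to 90103690 had 7.99, 17.6 and 10.4 in odd lists and 7.12 and 4.96 in even replicates 1 and 2, with summits 21 bases apart.

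Regions with at least 2 lists of each of 2 sets, lacZ included, numbered 12 of the 620 (1.94%, background 2.28%). Beside the 7 above, 3 joined odd and lacZ lists and 2 joined even and lacZ lists. Complete odd regions that lacked any even peak numbered 102 (16.5%, background 15.1%), and complete even regions that lacked any odd peak 131 (21.1%, background 18.0%). Complete lacZ regions with at most 1 probe list numbered 34 (5.48%, background 6.13%).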

How the data were processed

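The submitters' processing notes name FastQC, Bowtie2 and build hg19. For the peak caller, its settings and its control: not given in the sources used here. Peaks were called per sample, per the file headers and the peak names. The deposited pileup is a signal (coverage by fragments at the summit, not scaled to depth), the fold enrichment is a ratio to a background, and each p-value or q-value is given as its −log10, per the file headers. Positions count from 1. The members, loci and rules were chosen with earlier results of these data known.

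Analysis used Python 3.11.15, pandas 2.3.3 and numpy 2.4.6, and was tested on simulated lists. Flanks were as long as the locus on each side and ended at the last peak of the chromosome. Lists were compared by exact sign-flip permutation (512 arrangements) or, for 6 probe against 3 lacZ lists, exact permutation over 84 choices. Single sets were compared by exact permutation of 3 lists against 3. All tests were two-sided, and p-values called adjusted are by Benjamini-Hochberg over 8 comparisons. The p = 0.1 of single sets in this exact permutation is unadjusted. Its adjusted value was 0.16 for even minus odd and 0.2 for even minus lacZ. Peaks of all lists on chromosomes 1 to 22 and X were merged where they shared 1 base or more. Regions named are, per locus and set, among the 2 with the highest mean percentile of fold that were in all 3 lists, those with at least 2 lists of each of 2 sets, and stretches of at least 50 kb, or the longest, without a peak. The alternatives were other flanks, stricter or equally long lists, other assignment or merging rules, another pseudocount, a replicate block and lists or loci left out. No genome of build hg19 was used, so no sequences or genes are assigned to peaks. Counts of peaks carry no interval, because the depth is unknown.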

Additional observations from a re-analysis of the deposited data

Results flagged for a closer look

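In 3 loci the even lists moved in the opposite direction from the odd and lacZ lists when each was set against its flanks. In TRB the mean log2 ratio was −0.53 in even lists, 0.38 in odd lists and 0.54 in lacZ lists. In TRG it was 0.47 in even, −1.23 in odd and −1.78 in lacZ lists. In IGH it was 0.66 in even, −0.24 in odd and −0.32 in lacZ lists. Every list of a set lay on the same side of 0. The differences were tested with 3 lists against 3, which cannot give an exact permutation p below 0.1, and each of these 6 comparisons gave p = 0.1. Against the peaks per Mb of chromosomes 1 to 22 and X in place of the flanks, every list was above 0 in IGH. The log2 ratios there were 0.06 to 0.15 in lacZ, 0.49 to 0.62 in odd and 0.72 to 0.97 in even lists. In TRB the even lists then stood at 0.08, −0.13 and −0.03, the odd lists at 0.41 to 0.58 and the lacZ lists at 0.36, −0.14 and 0.48. In TRG the signs stayed opposite. Even lists also had more peaks in the flanks of TRB and fewer in the flank of IGH than odd lists. The part of the flanks in these differences was not tested.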

How the results depend on the processing

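Values are log2 differences unless said otherwise, p-values come from exact permutation tests, and leaving out a locus was an alternative chosen after seeing the data. For single loci, 216 repeats kept direction and side of the threshold, 30 lost a call, 5 gained one and 17 turned the sign. For pooled loci, counts and lengths, 152 kept their result, 18 lost a call, 2 gained one, 13 turned the sign and 14 counts or lengths moved. A count moved when it changed by more than 1.5 times, and a length when it changed by at least the SD over lists. Some repeats could not change a result, since taking off empty stretches leaves probe minus lacZ as it was. With odd or even lists alone, 3 lists against 3 allow no exact permutation p below 0.1 and so no call. Without stretches free of peaks TRA/TRD against its flanks was 0.16, IGK −0.21, the TR loci 0.22, the IG loci 0.055 and TR minus IG 0.16. With the lower flank only IGK was −0.40 and the IG loci −0.0038; with flanks of 2 locus lengths they were −0.084 and 0.16, and against chromosomes 1 to 22 and X IGK was −0.25. Without TRA/TRD the TR loci were −0.016 and TR minus IG −0.26, and without IGK the IG loci were 0.13. Calls were gained by TRB with lists of equal length (0.59, exact permutation, adjusted p = 0.0375), TRG with the upper flank only (−0.70, exact permutation, adjusted p = 0.0492) and IGH against chromosomes 1 to 22 and X (0.52, exact permutation, adjusted p = 0.00625). The upper flank alone could not be used for IGH, where it is too short.

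The comparison of probe with lacZ lists changed sign under several settings. With the lower flank only it was 0.22 in TRA/TRD, 0.29 in the TR loci and 0.00057 for TR minus IG; with the upper flank only −0.63 in TRG, −0.28 in the IG loci and −0.44 for TR minus IG (exact permutation p = 0.0119). With flanks of 2 locus lengths it was 0.021 in TRA/TRD, −0.24 in IGL and 0.015 in the TR loci. With peaks at or above the median fold of their list only (the stronger part) it was −0.41 in IGL and −0.18 in the IG loci. As a share of all peaks it was 0.17 in TRA/TRD, 0.0058 in TRB, 0.23 in the TR loci and 0.040 for TR minus IG, and passed the adjusted test in IGH at 0.61 and in IGK at −0.54 (exact permutation, adjusted p = 0.0476 each). It was −0.028 in the IG loci with odd lists alone, 0.017 in TRA/TRD with even lists alone, 0.084 in the TR loci without TRB, −0.073 in the IG loci without IGH and −0.57 for TR minus IG without IGK (exact permutation p = 0.0238). The cause was not tested.

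Leaving out a list or a replicate number gave −0.055 to 0.10 for IGH, −0.56 to −0.45 for the TR loci, 0.20 to 0.29 for the IG loci and −0.81 to −0.70 for TR minus IG. The TR loci and TRA/TRD then had adjusted p-values of 0.0156 to 0.125, with the call kept without any single list and lost where 6 lists remain. The adjusted p-values were 0.0156 to 0.208 for the IG loci, 0.0208 to 0.208 for IGK and 0.0156 to 0.25 for IGL, and most single lists left out ended these 3 calls. Recurrent regions in the TR loci numbered 39 in the stronger part and 25 with lists of equal length, and in the IG loci 113, 62 and, with 2 of 3 lists, 323. Shared probe regions in the TR loci numbered 0 in the stronger part, 0 with equal length and 1 with 6 of 6 lists, and in the IG loci 1, 0 and 1, 10 when peaks within 500 bases were merged, and 5 to 10 without a replicate number. In the last case fewer lists remained, and peaks in 3 probe lists and in no remaining lacZ list were enough, so the rule was looser. The longest empty stretch in the IG loci was 263.3 kb in the stronger part. The number of peaks per list limits precision, and total reads are unknown.

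Same-numbered lists deviated together with correlations of −0.01 to 0.26 (9 pairs, 1-Mb bins, median 0.037), and different numbers with −0.24 to 0.19 (median −0.010). These ranges overlap and do not settle whether the numbers pair the lists. With the replicate block (27 arrangements, smallest p = 0.037), probe minus lacZ was −0.17 in the TR loci (adjusted p = 0.237), 0.21 in the IG loci (adjusted p = 0.423) and −0.37 for TR minus IG (p = 0.111 in the exact permutation). No call changed, but that smallest p leaves an adjusted call hardly possible.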

Other observations

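Peaks that recurred in all 3 lists of their set made up a similar part of the loci and of their flanks. In the TR loci they were 71.1% ± 11.02 of the peaks of even lists, against 69.8% ± 13.02 in the flanks, 69.1% ± 19.5 of those of odd lists, against 66.2% ± 18.8, and 63.7% ± 32.2 of those of lacZ lists, against 56.2% ± 32.8 (SD, n = 3). In the IG loci they were 70.6% ± 5.78 against 68.4% ± 9.12 for even, 66.7% ± 18.7 against 69.9% ± 16.8 for odd, and 52.05% ± 32.4 against 53.6% ± 38.2 for lacZ lists. None of these differences was tested.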
